A study of Homo sapiens with 20 samples.

Results

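The genes described here are 48 targets of the transcription factor p53 that lie outside its best known programmes of cell cycle arrest, feedback, death, DNA repair and autophagy. They were taken by gene symbol, and all 48 were found among the 26485 gene rows that the tables of both experiments hold. Nuclear RNA of HCT116 cells, a human colorectal carcinoma line labelled as wild type, was sequenced after depletion of ribosomal RNA. Electroporation delivered either water or 10 µM of a peptide that the titles call Peg6 and the series title describes as stapled and as a blocker of p53–Mediator contact. Mediator is the coactivator through which transcription factors reach RNA polymerase II. For the next 3 hours the cells were kept in medium with 0.1% DMSO, alone or with 10 µM Nutlin-3a, a compound that releases p53 from its ubiquitin ligase MDM2. Wells of peptide-treated cells also received 200 nM peptide in the medium. The 4 conditions are called DMSO with water, Nutlin with water, DMSO with peptide and Nutlin with peptide. Experiment 1 gave 2 libraries of each condition and experiment 2 gave 3, so there are 20, with 36717795 to 63896604 reads each in experiment 1 and 18787172 to 47407746 in experiment 2. All are labelled as electroporated cells of this line, and no label says that the replicates were separate cultures, so p-values measure the spread between libraries, which may be technical.

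p53 is a tetramer that binds a pair of adjacent decamer motifs in DNA and, once freed from MDM2, raises transcription of the genes nearby. Beside the classic targets it is known to act on many genes for receptors, transporters, small GTPase regulators, metabolic enzymes and ubiquitin ligases, whose responses vary between cell types. The genes are therefore described by role: receptors, ligands and matrix proteins (12), transporters and channels (4), lipid, GTPase, kinase and cytoskeleton signalling (10), metabolic enzymes (5), transcription, RNA, ribosome and ubiquitin factors (10), and organelle and membrane proteins (7).

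Promoter sequence was available for 43 of the 48 genes, as RefSeq windows of 300 bases from 250 before to 50 after a start site on GRCh38.p14. FAM212B was matched by its synonym. Windows were searched on both strands for the p53 consensus response element, 2 decamers with a spacer of 0 to 13 bases, allowing 2 mismatches in the 20 bases but none in the central C and G of a decamer. Such a pair was found for 5 of 43 genes (11.6%), against 3.62% of the 27305 genes with a window and 2.93% of all 35116 windows. The 43 genes had 70 windows, and a gene with several windows has more chances of a match. A decamer without mismatch was found for 5 of 43 genes (11.6%), against 8.06% of all genes. Of the 5 genes with a pair, GLS2 was below the filter on low levels, and the other 4 are printed because their transcripts were measured, with the decamers in capitals. They are read 5′ to 3′ on the strand of the gene, for SLC12A4 at chr16:67964055-67964161, for DCP1B at chr12:2004610-2004707, for PANK1 at chr10:89645238-89645305 (all on the minus strand) and for SYTL1 at chr1:27341778-27341880 on the plus strand.
SLC12A4: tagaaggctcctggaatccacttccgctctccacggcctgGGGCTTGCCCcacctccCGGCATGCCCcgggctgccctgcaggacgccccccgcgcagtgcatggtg
DCP1B: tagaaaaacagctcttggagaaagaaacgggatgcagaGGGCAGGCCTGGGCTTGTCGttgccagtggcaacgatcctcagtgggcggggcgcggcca
PANK1: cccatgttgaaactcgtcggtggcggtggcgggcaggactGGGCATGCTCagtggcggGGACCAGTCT
SYTL1: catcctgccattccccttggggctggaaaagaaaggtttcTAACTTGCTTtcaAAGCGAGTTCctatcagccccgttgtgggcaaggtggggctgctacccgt
The pairs of SLC12A4 and PANK1 have 1 mismatch each and those of DCP1B and SYTL1 have 2. The spacer is 7 bases in SLC12A4, 0 in DCP1B, 8 in PANK1 and 3 in SYTL1. A match is a description of the letters and no evidence of binding, and p53 sites often lie outside such short windows.

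The values are reads per 1000000 reads (RPM) over the span of a gene row, introns included, scaled between libraries by the trimmed mean of M values (TMM), and are called scaled RPM below. Log2 changes are on the scale of log2(scaled RPM + 0.5), which understates the change of low genes. Of the 48 genes, 45 passed the filter of a mean of 0.5 RPM over the 20 libraries, as did 15958 rows in all. The median level of all 48 genes, with those below the filter included, was 22.6 RPM, against 20.8 RPM over all rows that passed. The rows of the 48 had a median span of 20.5 kb, against 20.6 kb over all rows that passed. For SPATA18, ARHGEF3, CERS5, PLCL2 and TNFAIP8 the experiments list different isoforms, so their levels cannot be set against each other between experiments. The 3 genes below the filter were SPATA18, a factor of mitochondrial quality control, with a mean of 0.252 RPM, the glutaminase GLS2 with 0.0407 RPM and the ubiquitin ligase TRIM22 with 0.448 RPM. They were not tested and stand in no count below. Per kb of span, the highest levels in experiment 1 were those of the GTPase RAP2B at 24.6 RPM, SERTAD1 at 17.4 RPM and PLXNB2 at 16.03 RPM, and in experiment 2 those of SERTAD1 at 88.3 RPM, RAP2B at 24.5 RPM and the adaptor TRAF4 at 21.2 RPM.

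Some libraries stood apart. In experiment 1, replicate 2 of Nutlin with water had the lowest scaling factor of all libraries, 0.698 against 0.786 to 0.923 in the other 7 of that experiment. In experiment 2, libraries with the same replicate number correlated at 0.990 to 0.996 across genes and those with different numbers at 0.931 to 0.946, while libraries of different experiments correlated at 0.768 to 0.875. The 4 libraries numbered 3 were all more than 8-fold above the other 8 of experiment 2 in 17 genes and below them in 27. Those numbered 1 were above by that much in 7 genes and below in 0, and those numbered 2 in 0 and 0. Among the genes described here EDA2R, a receptor of the tumour necrosis factor family, was the one past that limit: it had 12.4, 14.6, 12.1 and 13.8 scaled RPM in the libraries numbered 3, at most 0.0507 in the other 8 of experiment 2 and at most 0.0586 in experiment 1. The values of E2F7, EPHA2 and VWCE in experiment 2 also followed the replicate number more than the condition, and they were not alone. The libraries numbered 3 did not overlap the other 8 for 20 of the 45 genes (44.4%, against 33.9% of all genes). For number 1 this held for 10 (22.2%, against 32.7%) and for number 2 for 13 (28.9%, against 37.9%). The libraries numbered 3 held 39324843 to 47407746 reads, and the other 8 held 18787172 to 27146864. The labels name the same line for all 20 libraries, and whether a replicate number stands for a culture, a stock of cells or something else was not tested, so the pairs and blocks below rest on the numbers and values alone. The epithelial markers EPCAM and KRT8 were abundant, with means of 256 and 1383 RPM, and the leukocyte gene PTPRC and the fibroblast gene COL1A2 were near 0, at 0.0272 and 0.00105 RPM.

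**Figure D1:**
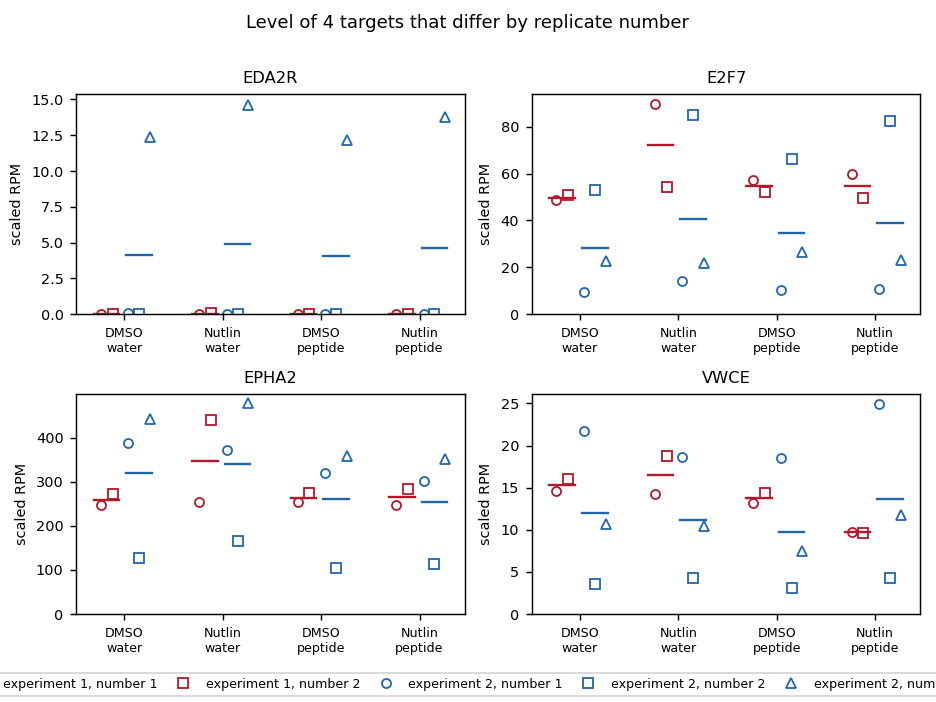
Scaled RPM (linear axis from 0) of EDA2R, E2F7, EPHA2 and VWCE in each of the 20 libraries by condition; red symbols are experiment 1, blue symbols experiment 2, the shape is the replicate number and the bars are group means. EDA2R is at 12.1 to 14.6 scaled RPM in the 4 libraries numbered 3 of experiment 2 and near 0 in the other 16.

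Nutlin-3a without peptide asks which of these genes follow the release of p53. Of the 45 genes tested, 42 were above 0 with Nutlin with water against DMSO with water, where 41.6% of all 15958 genes were, and their median log2 change was 0.23 against -0.03 over all genes. The classic p53 targets measured beside them, a list of 26 that includes CDKN1A and MDM2, were all above 0 with a median of 0.64. That list, like the genes described here, was chosen with earlier results of these data known. No single gene passed the test: limma with an experiment term and Benjamini-Hochberg adjustment called 0 of 15958 genes (0.0%), 0 of the 45 and 0 of the 26, with 67 genes higher and 33 lower at an unadjusted p under 0.05. The 67 (0.42% of all) held 6 of the 45. The lowest adjusted p among the 45 in limma was 0.9998. This fit has no term for the replicate number. Differences between replicate numbers thus widen its SE values, which are those given below unless blocks are named. With replicate blocks in limma, 498 genes were higher and 721 lower at an unadjusted p under 0.05. A lack of calls without blocks is therefore no evidence that a gene did not change. The changes of the 45 genes ranged from -0.28 to 0.84, so each estimate was smaller than a doubling, which is 1 on this scale. These are bulk samples, in which more cells with a transcript and more RNA per cell cannot be told apart.

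By replicate pair, which here means libraries of 1 experiment with the same replicate number, 11 of the 45 genes (24.4%) were higher with Nutlin in 5 of 5 pairs, against 2.87% of all genes tested. None of the 45 was lower in 5 of 5 pairs, against 4.51% of all genes. The 11 were the kinase inhibitor FAM212B, SYTL1, DGKA, NADSYN1, BLOC1S2, IKBIP, PLXNB2, the ubiquitin ligase TRIM32, the decapping factor DCP1B, ZNF337 and SLC12A4. The median log2 difference of the 45 genes was 0.48 and 0.16 in the pairs of experiment 1 and 0.18, 0.24 and 0.0054 in those of experiment 2. It was thus lowest in the pair numbered 3 of experiment 2, where 24 of 45 genes were above 0. Over the 4 pairs other than that one, 17 of 45 genes were higher throughout (37.8%, against 4.54% of all genes), and over the 4 pairs other than pair 2 of experiment 1, 20 were (44.4%, against 10.6%).

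With the replicate numbers as blocks limma also called 0 of 15958 genes, and 22 of the 45 were higher at an unadjusted p under 0.05 (3.12% of all genes). The lowest adjusted p of that fit was 0.0719, that of ZNF337. Without the libraries numbered 3 of experiment 2, a setting chosen after the data were seen, the blocked limma fit called 15 of 15810 genes (0.0949%), all higher. Limma-voom on the recovered reads called 9 of 15958 genes with blocks (0.0564%), all higher, and 0 without, none of them among the 45. In the fit without the libraries numbered 3, FAM212B was the one of the 44 genes still tested that passed, at a log2 change of 1.05 ± 0.17 (SE) and an adjusted p of 0.0398.

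**Figure D2:**
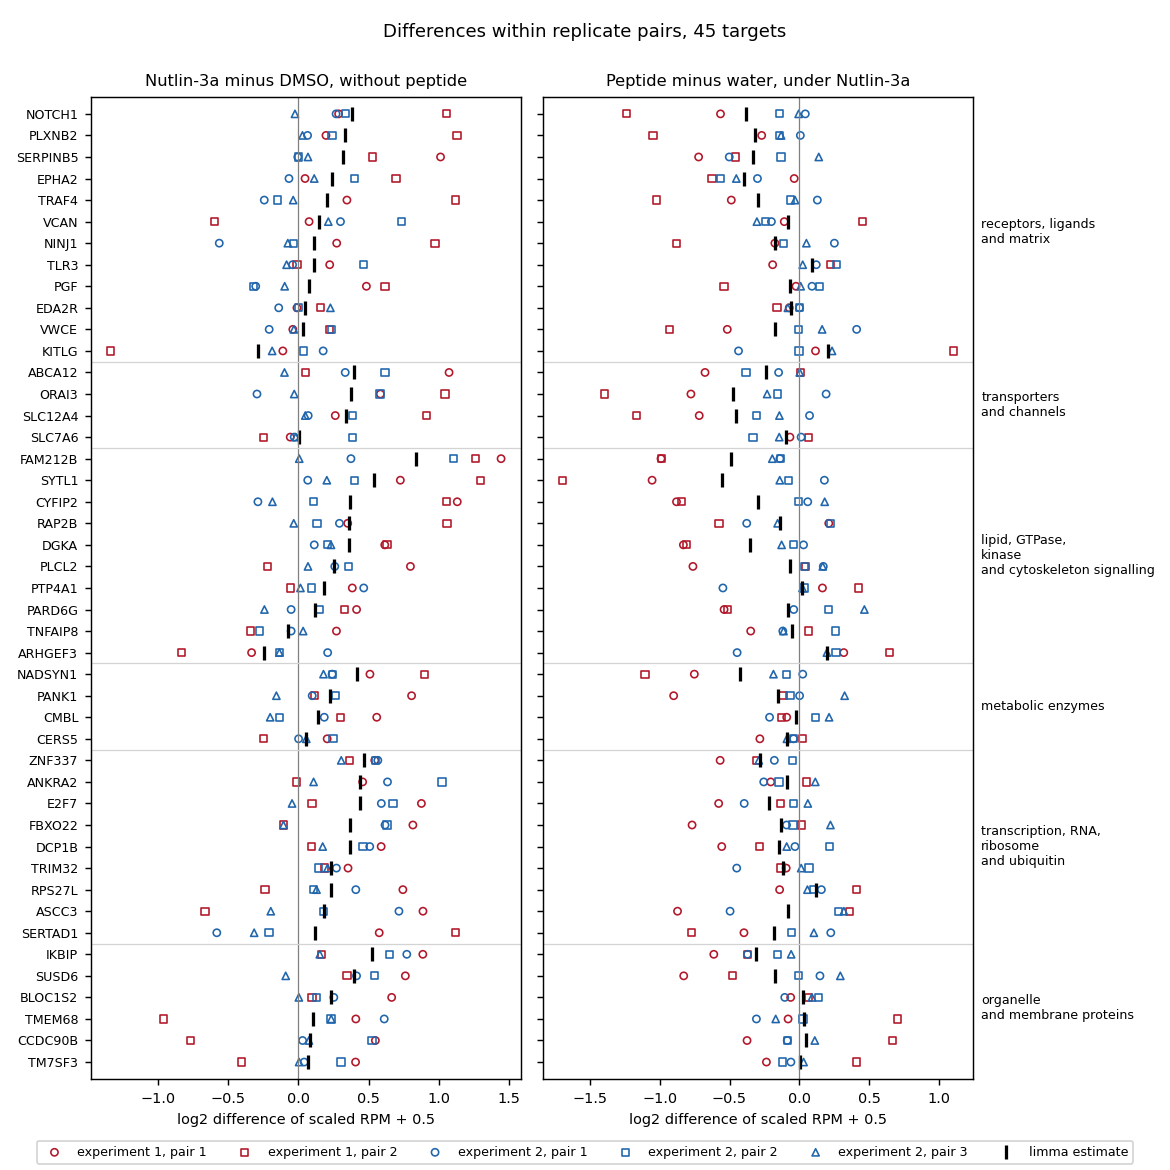
Difference of log2(scaled RPM + 0.5) within each replicate pair for the 45 genes tested, ordered by role and by their change with Nutlin; open symbols are pairs (red for experiment 1, blue for experiment 2) and black bars are the limma estimates. With Nutlin (left) 42 of 45 estimates lie right of 0, and with peptide under Nutlin (right) 36 of 45 lie left of 0.

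The peptide under Nutlin-3a asks whether the peptide lowers these genes when p53 is released. Of the 45 genes, 36 were below 0 in Nutlin with peptide against Nutlin with water, with a median log2 change of -0.14, while 60.9% of all genes were above 0 at a median of 0.04. The 26 classic targets had a median of -0.37, with 25 below 0. Their median was -0.92 in experiment 1 alone and -0.05 in experiment 2 alone, where 9 of 26 were above 0. Again limma called 0 of 15958 genes (0.0%) and 0 of the 45, with 33 genes higher and 44 lower at an unadjusted p under 0.05. The 44 (0.276% of all) held IKBIP, ZNF337, SLC12A4, DGKA and NADSYN1. The blocked limma fit also called 0 genes, and its lowest adjusted p among the 45 was 0.602, with 12 of the 45 lower at an unadjusted p under 0.05 (3.5% of all genes). Limma-voom called 0 genes without blocks and 3 with them, 2 higher (0.0125% of all) and 1 lower (0.00627%), none of them among the 45. FAM212B, IKBIP, ZNF337 and EPHA2 were lower in 5 of 5 pairs (8.89% of the 45, against 2.53% of all genes), and none was higher in 5 of 5 (4.86% of all genes). Pair by pair the median of the 45 was -0.40 and -0.16 in experiment 1 and -0.04, -0.04 and 0.0124 in experiment 2. This comparison and that of Nutlin-3a share the libraries of Nutlin with water, so the values are set side by side with no test of their relation.

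FAM212B, SYTL1, NADSYN1 and NOTCH1 were among both the 10 genes with the highest change with Nutlin and the 10 with the lowest change with peptide. Of the latter 10, all but SERPINB5 had their highest experiment 1 value in replicate 2 of Nutlin with water, the library with the low scaling factor. It was far above replicate 1 for SLC12A4, EPHA2, SYTL1, NADSYN1, ORAI3, NOTCH1 and PLXNB2, and slightly above it for FAM212B and DGKA. In pair 1 of experiment 1 all 10 were still lower with peptide, EPHA2 by little. The rows named below are whole spans of the listed RefSeq isoforms on hg38, exons and introns together.

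**Figure D3:**
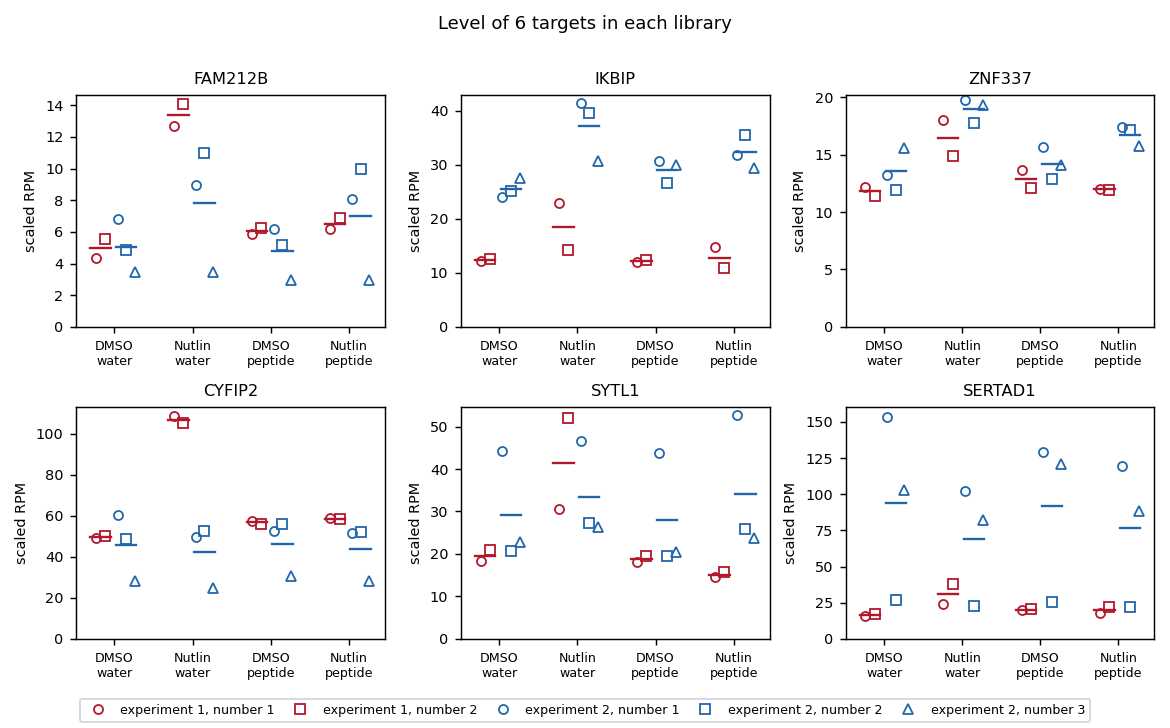
Scaled RPM (linear axis from 0) of FAM212B, IKBIP, ZNF337, CYFIP2, SYTL1 and SERTAD1 in each library by condition; red is experiment 1, blue experiment 2, shapes are replicate numbers and bars are group means. CYFIP2 is at 105 and 109 scaled RPM in Nutlin with water of experiment 1 and at or below 60.6 in all other libraries.

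The signalling group held the highest changes with Nutlin. FAM212B (chr1:111722064-111739242, minus strand) encodes an inhibitor of the kinase PAK4. In experiment 1 FAM212B had 4.37 and 5.58 scaled RPM in DMSO with water, 12.7 and 14.1 in Nutlin with water and 6.16 and 6.88 in Nutlin with peptide. In experiment 2 FAM212B had 6.799, 4.86 and 3.46 scaled RPM in DMSO with water, 8.96, 11.00 and 3.48 in Nutlin with water and 8.09, 9.96 and 2.98 in Nutlin with peptide. The groups did not overlap in experiment 1, and in experiment 2 the library numbered 3 stayed at the level of its control. FAM212B differed by a log2 of 0.84 ± 0.32 (SE) with Nutlin and by a log2 of -0.49 ± 0.32 (SE) with peptide under Nutlin, higher and then lower in 5 of 5 pairs. SYTL1 (chr1:27341992-27353852, plus strand) encodes a synaptotagmin-like protein of vesicle transport, and its promoter window is printed above. Scaled SYTL1 RPM in experiment 1 were 18.3 and 20.9 with DMSO and water, 30.6 and 52.1 with Nutlin and water, and 14.5 and 15.8 with Nutlin and peptide. Scaled SYTL1 RPM in experiment 2 were 44.4, 20.6 and 22.8 with DMSO and water, 46.5, 27.4 and 26.3 with Nutlin and water, and 52.7, 25.9 and 23.8 with Nutlin and peptide. Nutlin with water was above both its controls in experiment 1, and in experiment 2 replicate number 1 was highest in every condition. SYTL1 differed by a log2 of 0.54 ± 0.31 (SE) with Nutlin, higher in 5 of 5 pairs, and by a log2 of -0.56 ± 0.31 (SE) with peptide, lower in 4 of 5.

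CYFIP2 (chr5:157269342-157393000, plus strand) encodes a subunit of the WAVE complex that controls actin branching. Scaled CYFIP2 RPM in experiment 1 were 49.5 and 50.4 with DMSO and water, 109 and 105 with Nutlin and water, and 58.97 and 58.4 with Nutlin and peptide. Scaled CYFIP2 RPM in experiment 2 were 60.6, 48.7 and 28.1 with DMSO and water, 49.5, 52.6 and 24.7 with Nutlin and water, and 51.6, 52.3 and 28.02 with Nutlin and peptide. Both libraries of Nutlin with water of experiment 1 were thus far above all others, while the groups of experiment 2 overlapped. The log2 change with Nutlin was 1.14 in experiment 1 and -0.12 in experiment 2, and a log2 of 0.36 ± 0.28 (SE) in the fit of both. DGKA (chr12:55932028-55953768, plus strand) encodes a kinase that turns diacylglycerol into phosphatidic acid. In experiment 1 DGKA had 18.6 and 18.8 scaled RPM in DMSO with water, 28.7 and 29.3 in Nutlin with water and 15.9 and 16.5 in Nutlin with peptide. In experiment 2 DGKA had 18.9, 20.4 and 24.3 scaled RPM in DMSO with water, 20.5, 23.6 and 28.6 in Nutlin with water and 20.9, 22.8 and 26.1 in Nutlin with peptide. In experiment 1 Nutlin with water was above the other conditions without overlap, and in experiment 2 the groups overlapped. DGKA differed by a log2 of 0.36 ± 0.15 (SE) with Nutlin in 5 of 5 pairs and by a log2 of -0.36 ± 0.15 (SE) with peptide in 4 of 5.

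ARHGEF3 and TNFAIP8 were below 0 with Nutlin. ARHGEF3 (chr3:56727418-57035149, minus strand in the table of experiment 1) encodes an exchange factor for the GTPase RhoA. In experiment 1 ARHGEF3 had 190.1 and 186 scaled RPM in DMSO with water, 151 and 104 in Nutlin with water and 188 and 163 in Nutlin with peptide. In experiment 2 ARHGEF3 had 23.8, 22.1 and 11.3 scaled RPM in DMSO with water, 27.6, 20.1 and 10.3 in Nutlin with water and 20.1, 24.2 and 11.9 in Nutlin with peptide. The tables list different isoforms of it, so the levels of the experiments cannot be set against each other. ARHGEF3 differed by a log2 of -0.25 ± 0.27 (SE) with Nutlin, lower in 4 of 5 pairs. TNFAIP8 (chr5:119268692-119393381, plus strand in the table of experiment 1), named for its induction by tumour necrosis factor, also has different isoforms in the tables. Scaled TNFAIP8 RPM in experiment 1 were 49.05 and 45.9 with DMSO and water, 59.3 and 36.2 with Nutlin and water, and 46.5 and 37.8 with Nutlin and peptide. Scaled TNFAIP8 RPM in experiment 2 were 2.94, 3.400 and 1.31 with DMSO and water, 2.82, 2.72 and 1.36 with Nutlin and water, and 2.56, 3.34 and 1.22 with Nutlin and peptide. Its groups overlapped in both experiments, and the change with Nutlin was a log2 of -0.07 ± 0.27 (SE). Of the 10 genes of the group, 8 were above 0 with Nutlin (median 0.31) and 8 below 0 with peptide (median -0.11). Its median with peptide was -0.51 in experiment 1 alone and 0.0007 in experiment 2 alone. The phosphatase PTP4A1, RAP2B, the polarity protein gene PARD6G and the phospholipase C-like gene PLCL2 make up the rest, with changes of 0.12 to 0.36 with Nutlin.

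Among the receptors, ligands and matrix proteins, 11 of 12 were above 0 with Nutlin and 10 of 12 below 0 with peptide, at medians of 0.13 and -0.18. With peptide the median was -0.59 in experiment 1 alone and -0.0284 in experiment 2 alone. NOTCH1 (chr9:136494444-136545786, minus strand) encodes a receptor whose cleaved domain enters the nucleus. In experiment 1 NOTCH1 had 111 and 122 scaled RPM in DMSO with water, 135 and 254 in Nutlin with water and 91.3 and 108 in Nutlin with peptide. In experiment 2 NOTCH1 had 54.4, 56.2 and 34.1 scaled RPM in DMSO with water, 65.6, 71.1 and 33.6 in Nutlin with water and 67.6, 64.3 and 33.4 in Nutlin with peptide. Replicate 2 of Nutlin with water, the library with the low scaling factor, held the highest NOTCH1 value of all. NOTCH1 differed by a log2 of 0.38 ± 0.29 (SE) with Nutlin and by a log2 of -0.38 ± 0.29 (SE) with peptide, each in 4 of 5 pairs. PLXNB2 (chr22:50274979-50290584, minus strand) encodes a receptor for semaphorins. Scaled PLXNB2 RPM in experiment 1 were 244 and 266 with DMSO and water, 279.8 and 582 with Nutlin and water, and 232 and 281 with Nutlin and peptide. Scaled PLXNB2 RPM in experiment 2 were 249, 296 and 221 with DMSO and water, 261, 350.3 and 226 with Nutlin and water, and 262, 317 and 206 with Nutlin and peptide. Here too the same library of experiment 1 was highest. PLXNB2 differed by a log2 of 0.33 ± 0.20 (SE) with Nutlin, higher in 5 of 5 pairs, and by a log2 of -0.32 ± 0.20 (SE) with peptide.

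EPHA2 (chr1:16124337-16155932, minus strand) encodes a receptor tyrosine kinase for ephrins. In experiment 1 EPHA2 had 246 and 271 scaled RPM in DMSO with water, 255 and 439 in Nutlin with water and 248 and 284 in Nutlin with peptide. In experiment 2 EPHA2 had 389, 126 and 443 scaled RPM in DMSO with water, 371, 166 and 479 in Nutlin with water and 302, 112 and 350.5 in Nutlin with peptide. Replicate number 2 was lowest in every condition of experiment 2. EPHA2 differed by a log2 of -0.40 ± 0.40 (SE) with peptide under Nutlin, lower in 5 of 5 pairs, and by a log2 of 0.24 ± 0.40 (SE) with Nutlin, higher in 4 of 5. Its log2 change with peptide was -0.40 in experiment 1 and -0.43 in experiment 2. That of experiment 1 came mostly from pair 2 (439 to 284 scaled RPM), which holds the library with the low scaling factor. In pair 1 EPHA2 went from 255 to 248. With a library left out, the estimate with peptide ranged from -0.63 to -0.12 without blocks and from -0.47 to -0.32 with them. Without Nutlin, in DMSO with peptide, EPHA2 had 253 and 275 scaled RPM in experiment 1 and 319.6, 105 and 359 in experiment 2. Each value of experiment 2 was below the same-numbered library of DMSO with water, and each of experiment 1 was above it. In experiment 2 EPHA2 was thus lower with peptide without Nutlin as well. SERPINB5 (chr18:63476911-63503722, plus strand) encodes maspin, an inhibitor-like protein of epithelia. Scaled SERPINB5 RPM in experiment 1 were 9.32 and 9.82 with DMSO and water, 19.3 and 14.3 with Nutlin and water, and 11.5 and 10.3 with Nutlin and peptide. Scaled SERPINB5 RPM in experiment 2 were 8.57, 15.6 and 2.999 with DMSO and water, 8.55, 15.6 and 3.17 with Nutlin and water, and 5.89, 14.2 and 3.54 with Nutlin and peptide. Nutlin with water stood above its controls in experiment 1, and in experiment 2 water libraries of the same number differed little. SERPINB5 differed by a log2 of 0.32 ± 0.44 (SE) with Nutlin and by a log2 of -0.33 ± 0.44 (SE) with peptide.

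VWCE (chr11:61258286-61295037, minus strand) encodes a secreted protein with von Willebrand factor and growth factor-like domains. In experiment 1 VWCE had 14.6 and 15.98 scaled RPM in DMSO with water, 14.2 and 18.7 in Nutlin with water and 9.78 and 9.597 in Nutlin with peptide. In experiment 2 VWCE had 21.7, 3.55 and 10.8 scaled RPM in DMSO with water, 18.7, 4.26 and 10.5 in Nutlin with water and 24.99, 4.23 and 11.8 in Nutlin with peptide. In experiment 1 both libraries of Nutlin with peptide were below all those of Nutlin with water, and in experiment 2 the groups overlapped. VWCE differed by a log2 of 0.04 ± 0.51 (SE) with Nutlin and by a log2 of -0.18 ± 0.51 (SE) with peptide. KITLG (chr12:88492793-88580278, minus strand), the gene of the ligand for the receptor KIT, had the lowest change with Nutlin of the 45. Scaled KITLG RPM in experiment 1 were 1180 and 1096 with DMSO and water, 1094 and 434 with Nutlin and water, and 1184 and 930.1 with Nutlin and peptide. Scaled KITLG RPM in experiment 2 were 589, 762 and 506 with DMSO and water, 666, 783 and 445 with Nutlin and water, and 492, 781 and 523 with Nutlin and peptide. The low value of experiment 1 was that of replicate 2 of Nutlin with water alone. KITLG differed by a log2 of -0.28 ± 0.24 (SE) with Nutlin and by a log2 of 0.20 ± 0.24 (SE) with peptide, and without that library the latter was -0.0618. The rest of the group (PGF, TLR3, NINJ1, VCAN, TRAF4 and EDA2R) had changes of 0.05 to 0.21 with Nutlin and of -0.30 to 0.09 with peptide. EDA2R passed the filter through the 4 libraries numbered 3 of experiment 2, and its estimate with Nutlin (0.0478) rests on them. Left out of the counts after its values were seen, it leaves 10 of 11 genes of the group and 41 of all 44 above 0 with Nutlin.

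All 4 genes for transporters and channels were above 0 with Nutlin (median 0.36) and below 0 with peptide (median -0.35, at -0.69 in experiment 1 alone and -0.14 in experiment 2 alone). SLC12A4 (chr16:67943474-67964027, minus strand), whose promoter window holds the pair printed above, encodes a potassium chloride cotransporter. In experiment 1 SLC12A4 had 35.2 and 38.4 scaled RPM in DMSO with water, 42.4 and 72.7 in Nutlin with water and 25.6 and 32.1 in Nutlin with peptide. In experiment 2 SLC12A4 had 32.8, 24.1 and 38.6 scaled RPM in DMSO with water, 34.5, 31.6 and 40.02 in Nutlin with water and 36.3, 25.4 and 36.2 in Nutlin with peptide. Nutlin with peptide was below both other conditions in experiment 1, and the 3 conditions overlapped in experiment 2. SLC12A4 differed by a log2 of 0.34 ± 0.19 (SE) with Nutlin, higher in 5 of 5 pairs, and by a log2 of -0.45 ± 0.19 (SE) with peptide, lower in 4 of 5. Its row shares 628 bases with LCAT on the same strand, which had 5.39 and 7.77 RPM in the experiments. ORAI3 (chr16:30949084-30953844, plus strand) encodes a subunit of store-operated calcium channels. Scaled ORAI3 RPM in experiment 1 were 2.27 and 2.73 with DMSO and water, 3.65 and 6.15 with Nutlin and water, and 1.93 and 2.03 with Nutlin and peptide. Scaled ORAI3 RPM in experiment 2 were 5.58, 1.12 and 2.27 with DMSO and water, 4.46, 1.92 and 2.21 with Nutlin and water, and 5.16, 1.67 and 1.81 with Nutlin and peptide. Nutlin with water was highest in experiment 1, and replicate number 1 was highest in experiment 2 in each condition. ORAI3 differed by a log2 of 0.38 ± 0.35 (SE) with Nutlin and by a log2 of -0.47 ± 0.35 (SE) with peptide. ABCA12 (chr2:214931542-215031927, minus strand) encodes a lipid transporter. In experiment 1 ABCA12 had 1.33 and 1.54 scaled RPM in DMSO with water, 3.34 and 1.61 in Nutlin with water and 1.91 and 1.62 in Nutlin with peptide. In experiment 2 ABCA12 had 5.12, 2.33 and 1.92 scaled RPM in DMSO with water, 6.59, 3.84 and 1.76 in Nutlin with water and 5.89, 2.83 and 1.76 in Nutlin with peptide. In experiment 1 a single library, replicate 1 of Nutlin with water, was high. ABCA12 differed by a log2 of 0.39 ± 0.35 (SE) with Nutlin, and its row overlaps the row LOC101928103 of the opposite strand, which had 41.2 and 151 RPM. The amino acid transporter gene SLC7A6 was at 0.0063 with Nutlin and -0.09 with peptide.

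The 4 tested genes of metabolic enzymes were all above 0 with Nutlin (median 0.18) and below 0 with peptide (median -0.12, at -0.39 in experiment 1 alone and -0.0058 in experiment 2 alone). NADSYN1 (chr11:71453171-71501352, plus strand) encodes the synthetase of the last step to NAD. In experiment 1 NADSYN1 had 43.7 and 44.98 scaled RPM in DMSO with water, 62.4 and 84.4 in Nutlin with water and 36.9 and 38.96 in Nutlin with peptide. In experiment 2 NADSYN1 had 43.8, 38.03 and 41.6 scaled RPM in DMSO with water, 51.9, 45.1 and 47.1 in Nutlin with water and 52.8, 42.3 and 41.4 in Nutlin with peptide. Nutlin with water was above DMSO with water without overlap in both experiments, and above Nutlin with peptide without overlap in experiment 1. NADSYN1 differed by a log2 of 0.41 ± 0.14 (SE) with Nutlin in 5 of 5 pairs and by a log2 of -0.42 ± 0.14 (SE) with peptide in 4 of 5. PANK1, the kinase of the first step to coenzyme A, whose window is printed above, was at 0.23 with Nutlin and -0.15 with peptide. The ceramide synthase gene CERS5 and the hydrolase gene CMBL were at 0.05 and 0.14 with Nutlin.

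All 9 tested genes for transcription, RNA, ribosome and ubiquitin factors were above 0 with Nutlin (median 0.37), and 8 of 9 were below 0 with peptide (median -0.13). With peptide the median of the group was -0.43 in experiment 1 alone and turned to 0.0328 in experiment 2 alone. ZNF337 (chr20:25673195-25686417, minus strand) encodes a zinc finger protein. In experiment 1 ZNF337 had 12.2 and 11.4 scaled RPM in DMSO with water, 18.03 and 14.9 in Nutlin with water and 12.01 and 11.9 in Nutlin with peptide. In experiment 2 ZNF337 had 13.2, 11.9 and 15.6 scaled RPM in DMSO with water, 19.8, 17.8 and 19.3 in Nutlin with water and 17.4, 17.1 and 15.7 in Nutlin with peptide. Nutlin with water did not overlap DMSO with water or Nutlin with peptide in either experiment. In experiment 2 it was the one gene of the 45 that was lower with peptide without overlap (2.22% of the 45, against 0.664% of all genes). ZNF337 differed by a log2 of 0.47 ± 0.12 (SE) with Nutlin, at 0.50 in experiment 1 and 0.48 in experiment 2, and by a log2 of -0.28 ± 0.12 (SE) with peptide. ANKRA2 (chr5:73552200-73562881, minus strand) encodes an ankyrin repeat protein that binds class II histone deacetylases. Scaled ANKRA2 RPM in experiment 1 were 3.39 and 2.75 with DMSO and water, 4.84 and 2.72 with Nutlin and water, and 4.14 and 2.84 with Nutlin and peptide. Scaled ANKRA2 RPM in experiment 2 were 12.6, 9.08 and 18.9 with DMSO and water, 19.9, 18.96 and 20.4 with Nutlin and water, and 16.6, 17.1 and 22.2 with Nutlin and peptide. Its groups overlapped in experiment 1, and in experiment 2 Nutlin with water was above its controls without overlap. ANKRA2 differed by a log2 of 0.44 ± 0.20 (SE) with Nutlin and by a log2 of -0.09 ± 0.20 (SE) with peptide.

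E2F7 (chr12:77021246-77064635, minus strand) encodes an E2F factor that represses cell cycle genes. In experiment 1 E2F7 had 48.7 and 50.8 scaled RPM in DMSO with water, 89.8 and 54.4 in Nutlin with water and 60.01 and 49.5 in Nutlin with peptide. In experiment 2 E2F7 had 9.23, 53.2 and 22.7 scaled RPM in DMSO with water, 14.2, 85.1 and 22.01 in Nutlin with water and 10.7, 82.5 and 22.97 in Nutlin with peptide. Within experiment 2 its level followed the replicate number, with number 2 highest and number 1 lowest in every condition. E2F7 differed by a log2 of 0.44 ± 0.57 (SE) with Nutlin, higher in 4 of 5 pairs, and by a log2 of -0.22 ± 0.57 (SE) with peptide. SERTAD1 (chr19:40422501-40423546, minus strand) encodes a coregulator that binds the kinase CDK4. Scaled SERTAD1 RPM in experiment 1 were 16.1 and 17.1 with DMSO and water, 24.2 and 37.8 with Nutlin and water, and 18.3 and 21.9 with Nutlin and peptide. Scaled SERTAD1 RPM in experiment 2 were 153, 26.7 and 103 with DMSO and water, 102, 23.04 and 82.4 with Nutlin and water, and 119.8, 22.1 and 88.6 with Nutlin and peptide. In experiment 1 Nutlin with water was above its controls, and in experiment 2 it was below them in all 3 pairs. The log2 change of SERTAD1 with Nutlin was 0.89 in experiment 1 and -0.36 in experiment 2. The ribosomal protein gene RPS27L, the F-box gene FBXO22, the helicase gene ASCC3, DCP1B and TRIM32 had changes of 0.18 to 0.37 with Nutlin. DCP1B, with its decamers printed above, was higher in 5 of 5 pairs at a log2 change of 0.37.

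All 6 tested genes for organelle and membrane proteins were above 0 with Nutlin (median 0.17), while with peptide 2 of 6 were below 0 (median 0.0143, at -0.0278 in experiment 1 alone and -0.0307 in experiment 2 alone). IKBIP (chr12:98624252-98644701, minus strand) encodes a membrane protein that interacts with the kinase IKK. In experiment 1 IKBIP had 12.2 and 12.6 scaled RPM in DMSO with water, 22.9 and 14.2 in Nutlin with water and 14.8 and 10.9 in Nutlin with peptide. In experiment 2 IKBIP had 24.1, 25.1 and 27.6 scaled RPM in DMSO with water, 41.4, 39.7 and 30.8 in Nutlin with water and 31.9, 35.6 and 29.5 in Nutlin with peptide. Nutlin with water was above DMSO with water without overlap in both experiments. IKBIP differed by a log2 of 0.53 ± 0.14 (SE) with Nutlin, with 0.57 in experiment 1 and 0.53 in experiment 2, and by a log2 of -0.31 ± 0.14 (SE) with peptide, each in 5 of 5 pairs. SUSD6 (chr14:69611593-69710979, plus strand) encodes a membrane protein with a sushi domain. Scaled SUSD6 RPM in experiment 1 were 28.8 and 27.2 with DMSO and water, 49.1 and 34.6 with Nutlin and water, and 27.4 and 24.7 with Nutlin and peptide. Scaled SUSD6 RPM in experiment 2 were 3.81, 4.86 and 2.98 with DMSO and water, 5.24, 7.305 and 2.77 with Nutlin and water, and 5.85, 7.27 and 3.503 with Nutlin and peptide. Its groups did not overlap in experiment 1 in either comparison and overlapped in experiment 2. SUSD6 differed by a log2 of 0.39 ± 0.26 (SE) with Nutlin and by a log2 of -0.18 ± 0.26 (SE) with peptide. BLOC1S2, a gene of lysosome-related organelle assembly, the mitochondrial gene CCDC90B, TM7SF3 and TMEM68 had changes of 0.07 to 0.23 with Nutlin and of 0.0041 to 0.05 with peptide.

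Both effects were also fitted in each experiment alone. The median log2 change of the 44 genes tested in experiment 1 alone was 0.45 with Nutlin and -0.43 with peptide under Nutlin. In experiment 2 alone, where 46 were tested, the medians were 0.14 and -0.04, and 19 of 46 genes were above 0 with peptide. Without overlap between groups, 23 of 45 genes were higher with Nutlin in experiment 1 (51.1%, against 9.38% of all genes) and 4 in experiment 2 (8.89%, against 1.14%). With peptide, 20 were lower without overlap in experiment 1 (44.4%, against 11.7%) and 1 in experiment 2. The difference between experiments was tested itself. Without blocks limma called 0 genes for either effect, with 78 genes higher and 76 lower for Nutlin and 77 higher and 87 lower for peptide at an unadjusted p under 0.05.

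With replicate blocks limma called the difference of the Nutlin effect, experiment 1 less experiment 2, for CYFIP2 (log2 1.21 ± 0.15 SE, adjusted p = 0.00440) and SERTAD1 (1.21 ± 0.19, adjusted p = 0.0371), 2 of the 3 genes called among 15958 (0.0188%). The third was the classic target FDXR. The same fit called the difference of the peptide effect for 5 of the 45 genes, all lower in experiment 1, against 0.244% of all genes called lower and 0.094% called higher: SYTL1 (-1.36 ± 0.19, adjusted p = 0.0126), CYFIP2 (-0.94 ± 0.15, adjusted p = 0.0195), DGKA (-0.77 ± 0.14, adjusted p = 0.0353), NADSYN1 (-0.84 ± 0.16, adjusted p = 0.0365) and VWCE (-0.91 ± 0.18, adjusted p = 0.0417). Of the 26 classic targets 8 were called for the peptide effect, all lower in experiment 1. CYFIP2 passed for the Nutlin effect with each of the 20 libraries left out in turn, and SERTAD1 in 6 of 20 such fits. For the peptide effect SYTL1 passed in 17 of 20, CYFIP2 in 16, DGKA in 8, NADSYN1 in 7 and VWCE in 2. Without the 4 libraries numbered 3 of experiment 2 the blocked fit called the difference for 0 genes of either effect, with fewer libraries and fewer blocks. At an unadjusted p under 0.05 in that fit, 11 of the 44 genes were higher for Nutlin (10.8% of all genes) and 4 lower (12.9%), and for peptide 3 were higher (9.48%) and 15 lower (5.48%). The cause of the difference between experiments was not tested.

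**Figure D4:**
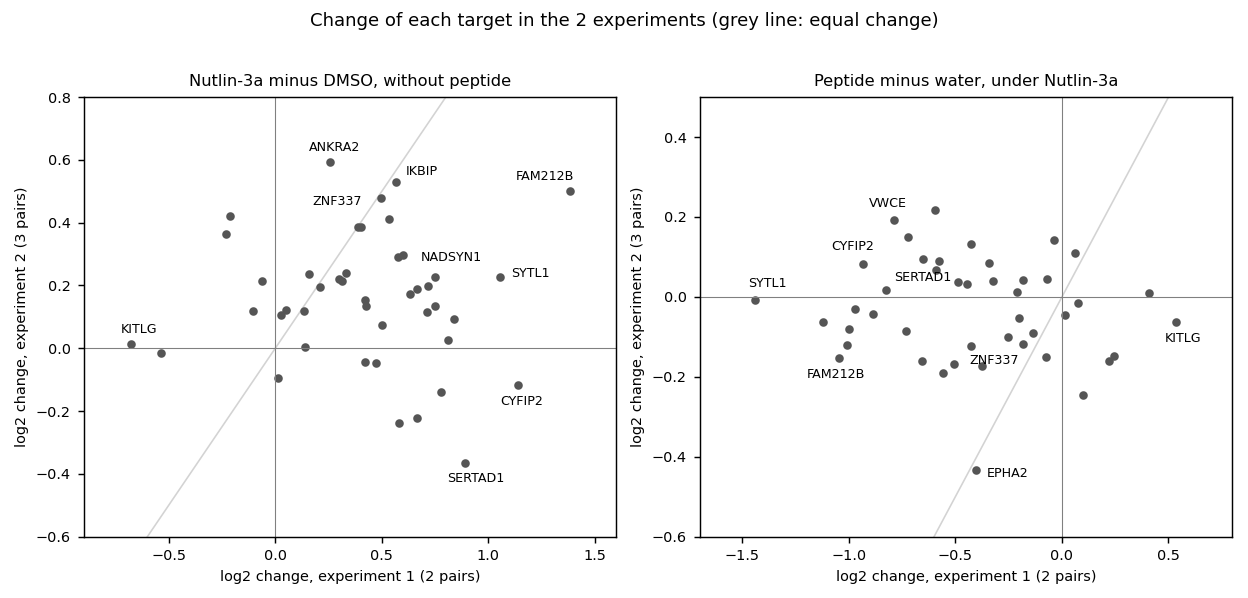
Log2 change of the 44 genes tested in both experiments, in experiment 1 (horizontal) against experiment 2 (vertical), each fitted alone, for Nutlin-3a (left) and for peptide under Nutlin-3a (right); the grey line marks equal change and the axes differ in scale. IKBIP and ZNF337 lie near the line on the left, and CYFIP2 and SERTAD1 lie far below it.

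The peptide without Nutlin-3a asks what the peptide does before p53 is released. Of the 45 genes 31 were above 0, at a median of 0.06, against 60.03% of all genes at a median of 0.02, and limma called 0 of 15958 (0.0%) with 9 genes higher and 7 lower at an unadjusted p under 0.05, none of them among the 45. In 5 of 5 pairs 8 genes were higher (17.8%, against 5.86% of all genes): PLCL2, CCDC90B, FBXO22, DCP1B, RAP2B, E2F7, RPS27L and PTP4A1. VWCE and SYTL1 were lower in 5 of 5 (4.44%, against 3.28%). The changes were small, from -0.24 for VWCE to 0.23 for PTP4A1. FAM212B had 5.89 and 6.25 scaled RPM in DMSO with peptide of experiment 1 and 6.21, 5.17 and 2.95 in experiment 2. These values lie close to those of DMSO with water. For IKBIP they were 11.98 and 12.4 and 30.6, 26.7 and 30.03, for ZNF337 13.6 and 12.1 and 15.7, 12.8 and 14.1, and for CYFIP2 57.5 and 56.2 and 52.8, 56.1 and 30.7.

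Nutlin-3a in peptide-treated cells asks how much of the response remains. Of the 45 genes 25 were above 0, with a median of 0.0134, against 43.3% of all genes at a median of -0.01. The sign of this median was not stable. It was -0.0358 in experiment 1 alone, with 18 of 44 genes above 0, and 0.0416 in experiment 2 alone, with 28 of 46. Without replicate 2 of Nutlin with peptide in experiment 2 it was -0.0378, with 19 of 45 above 0, and without replicate 3 of that group it was 0.0745, with 28 above 0. The 26 classic targets had a median of 0.19, with 21 above 0. Their median was 0.06 in experiment 1 alone and 0.25 in experiment 2 alone, against 0.98 and 0.42 without peptide. Here limma called 0 of 15958 genes (0.0%), with 19 higher and 7 lower at an unadjusted p under 0.05, none of them among the 45. With replicate blocks limma also called 0 genes, with 2 of the 45 higher at an unadjusted p under 0.05 (1.16% of all genes), and limma-voom with blocks called 7 genes (0.0439%), all higher and none among the 45. FAM212B and ANKRA2 were higher in 5 of 5 pairs (4.44% of the 45, against 1.62% of all genes), at log2 changes of 0.29 and 0.30. SUSD6 had the highest estimate, 0.35, and was higher in 3 of 5 pairs. NINJ1, a gene of plasma membrane rupture, was lower in 5 of 5 (2.22%, against 3.16%), at -0.11.

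The difference between the Nutlin effect with peptide and that with water was tested as an interaction. Of the 45 genes 39 were below 0, at a median of -0.24 against 0.02 over all genes, and all 26 classic targets were, at a median of -0.47. No gene passed: limma called 0 of 15958 (0.0%), with 10 higher and 16 lower (0.1% of all) at an unadjusted p under 0.05, 2 of the 45 among the lower ones. The lowest values were those of FAM212B at -0.55 ± 0.45, SYTL1 at -0.49 ± 0.44, SERPINB5 at -0.47 ± 0.62 and ORAI3 at -0.45 ± 0.50. With replicate blocks limma again called 0 genes, while 9 of the 45 (0.927% of all genes) and 17 of the 26 classic targets were lower at an unadjusted p under 0.05. Limma-voom with blocks called 4 genes (0.0251%), all higher and none among the 45. The median of the 45 was -0.47 in experiment 1 alone and -0.10 in experiment 2 alone. That of the 26 classic targets was -1.04 in experiment 1 alone, with 1 above 0, and -0.16 in experiment 2 alone, with 3 above 0.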

How the data were processed

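The members and lists were chosen with earlier results of these data known. Per the submitters' processing notes the build was hg38 and the tools included HISAT2, bedtools and limma, at versions and settings not given in the sources used here. The deposited unit is the authors' own: RPM over the rows, divided by the stop coordinate less a thousandth of the start. The design assumed another unit, so this divisor was removed, which gave columns summing to 1000000 and, within 0.001 of a whole number, read counts for 100% of values. Whether strand was used in counting is not given in the sources used here. A row nested in another on the same strand never had more reads than its host (423 pairs in experiment 1, 346 in experiment 2), and on the opposite strand 62 of 117 and 65 of 105 did.

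The deposited tables hold scaled values, so R 4.3.3 with limma 3.58.1 was used, fitted with a trend to log2(scaled RPM + 0.5), after a TMM scaling that trims 30% of log ratios and 5% of abundances. Rows with a mean of at least 0.5 RPM entered, with terms for condition and experiment. The Benjamini-Hochberg adjustment ran over all 15958 genes, and a call is an adjusted p under 0.05. Figures were drawn with matplotlib 3.10.9 in Python 3.11.15. The procedure was tested on simulated data. These held no differences between replicate numbers, so they do not show how the fit without blocks handles such differences.

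No label says that replicate numbers pair libraries. The pairing comes from the values: deviations from the condition mean correlated between same-numbered libraries at 0.286 to 0.586 over 12 pairings in experiment 1, and at 0.877 to 0.940 over 18 in experiment 2. In experiment 1 each condition has 2 libraries, so both replicate numbers give the same correlation and unlike numbers give its exact negative. The 12 are thus not 12 separate values, and the pairing rests on less in experiment 1. Values for every library of DMSO with water, Nutlin with water and Nutlin with peptide are given for 22 genes. These are the 10 with the highest change with Nutlin, the 10 with the lowest change with peptide under Nutlin, those called in the test or with blocks, and those below 0 with Nutlin. EDA2R was added after its values were seen. Of the 22 genes, the text prints the libraries of DMSO with peptide for FAM212B, IKBIP, ZNF337, CYFIP2 and EPHA2 alone. Alternatives were limma-voom, replicate blocks, other scaling, filters and pseudocounts, each experiment alone and each library left out.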

Additional observations from a re-analysis of the deposited data

Results flagged for a closer look

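The difference between experiments was called by limma with replicate blocks for these results, and not by limma without blocks. The Nutlin effect of CYFIP2 was larger in experiment 1 than in experiment 2 by 1.21 on the log2 scale, and that of SERTAD1 by 1.21. The peptide effect under Nutlin differed, experiment 1 less experiment 2, by -0.91 for VWCE, -0.77 for DGKA, -1.36 for SYTL1, -0.94 for CYFIP2 and -0.84 for NADSYN1. Both effects rest on the 2 libraries of Nutlin with water in experiment 1, so the CYFIP2 results are not independent of each other. The cause was not tested.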

How the results depend on the processing

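The fit with the replicate block called 0 genes for each effect within the experiments, and for the difference between experiments 3 genes and 2 of the 45 (Nutlin) and 54 genes and 5 of the 45 (peptide), against 0 without the block. Limma-voom with the block called 9 genes for Nutlin, 3 for peptide under Nutlin, 7 for Nutlin in peptide-treated cells and 4 for the interaction, and between experiments 4 genes and 2 of the 45 (Nutlin) and 42 genes and 5 of the 45 (peptide). Without the low-level filter 1 gene was called for Nutlin in peptide-treated cells and 1 for each difference between experiments. Chosen after the data were seen, the blocked fit without the libraries numbered 3 of experiment 2 called 15 genes for Nutlin, 1 of them among the 45.

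Experiment 1 alone, with or without the block, called 1 gene each for peptide under Nutlin, peptide without Nutlin and Nutlin in peptide-treated cells, and gave medians of 0.45 (Nutlin), -0.43 (peptide under Nutlin), 0.0079 (peptide without Nutlin) and -0.47 (interaction). Experiment 2 alone put 19 genes above 0 with peptide under Nutlin and 14 in the interaction, and with the block, chosen after the data were seen, called 2 genes for peptide under Nutlin. Its change with Nutlin reversed for CYFIP2 (-0.12), KITLG (0.0138) and SERTAD1 (-0.36), and its change with peptide for CYFIP2 (0.0821), KITLG (-0.0637), SERTAD1 (0.0946), SUSD6 (0.15), TNFAIP8 (0.0119) and VWCE (0.19), while experiment 1 alone reversed TNFAIP8 with Nutlin (0.0124). None of these changes passed the test in either fit.

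Leaving out each library in turn, with and without the block, gave 0 to 19 called genes and 0 to 2 of the 45 for Nutlin (19 and 2 without Nutlin with water replicate 3 of experiment 2, with the block, FAM212B at 0.99 and IKBIP at 0.62; 7 and 1 without DMSO with water replicate 3 of experiment 2), medians of 0.16 to 0.35 for Nutlin and -0.25 to -0.07 for peptide, and 5 to 16 genes above 0 with peptide and 3 to 11 in the interaction, whose median ranged from -0.34 to -0.14. For Nutlin in peptide-treated cells the median ranged from -0.0378 to 0.0745. Between experiments it gave 0 to 8726 genes and 0 to 23 of the 45 for Nutlin, and 0 to 7926 genes and 0 to 24 of the 45 for peptide. The highest numbers came from the blocked fit that leaves out the first library of Nutlin with water of experiment 1, where the lone replicate 2 is assumed to vary like the other libraries. With a library left out, the change with Nutlin ranged from -0.0245 to 0.49 for EPHA2, -0.20 to 0.55 for SERTAD1, -0.24 to 0.0862 for TNFAIP8 and -0.31 to 0.36 for VWCE, and that with peptide from -0.64 to 0.15 for E2F7, -0.0618 to 0.34 for KITLG, -0.60 to 0.20 for SERTAD1, -0.20 to 0.11 for TNFAIP8 and -0.55 to 0.0817 for VWCE. Without a change of sign, the change with Nutlin ranged from 0.0764 to 0.77 for E2F7, 0.0528 to 0.68 for SERPINB5 and -0.41 to -0.0198 for KITLG. All these ranges of single genes came from the fits without the block. With the block the change of EPHA2 with Nutlin ranged from 0.16 to 0.32. That with peptide ranged from -0.33 to -0.12 for E2F7 and from -0.28 to -0.0127 for VWCE. The other changes that turned sign without the block also did so with it. Without TMM scaling the median of all genes for the difference of the Nutlin effect between experiments moved from -0.05 to -0.29, and that of the 45 genes turned from 0.09 to -0.0489, with 21 rather than 29 above 0.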
